A study of Mus musculus with 8 samples.

Results

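GABA-A receptor subunit genes were read in gene counts from bulk RNA sequencing of the mouse cingulate cortex, a medial region of the cerebral cortex. The 7 genes were taken by symbol, *Gabra2*, *Gabra3*, *Gabra4*, *Gabra5*, *Gabrb1*, *Gabrb2* and *Gabrd*, and each symbol matched 1 Ensembl identifier among the 53379 genes of the table. All 7 were among the 16914 genes that passed the filter on low counts and were tested. No gamma gene is among the 7, so the order of levels given here holds among these genes alone. The samples were 4 untreated WT (Mvp+/+) and 4 untreated Mvp KO (Mvp-/-) male mice. The KO allele is a gene trap, in which a β-geo cassette with a splice acceptor and a polyadenylation signal sits in the first intron of *Mvp*. This gene encodes the major vault protein, the main component of cytoplasmic vault particles. The trap is carried in the germline, so it is not limited to one cell type. The age of the animals was not given in the sources used here. The comparison asks whether loss of *Mvp* is accompanied by a difference in the transcripts of these receptor subunits.

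GABA-A receptors are chloride channels opened by the transmitter GABA and carry most of the fast inhibition in the cerebral cortex. Each receptor is a ring of 5 subunits, most often alpha and beta subunits with a gamma or a delta subunit. The alpha subunit sets much of the receptor's pharmacology, and the alpha and beta subunits together form the GABA binding site. Receptors with a gamma subunit gather at synapses, whereas receptors that pair alpha4 with delta lie outside synapses and respond to low ambient GABA and to neurosteroids. Alpha5 receptors also lie largely outside synapses.

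A short stretch of coding sequence separates the alpha genes by drug binding and is shown for that reason. The capitals mark the codon for the residue that decides whether classical benzodiazepines bind at the interface of the alpha and gamma subunits. CAC encodes histidine, found in benzodiazepine-sensitive alpha subunits, and AGG encodes arginine, found in insensitive ones. Each stretch is 45 bases of the coding strand, read from GENCODE vM21 transcripts of GRCm38, 5′ to 3′.
Gabra2: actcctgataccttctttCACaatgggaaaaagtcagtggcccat
Gabra3: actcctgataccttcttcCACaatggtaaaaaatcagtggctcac
Gabra5: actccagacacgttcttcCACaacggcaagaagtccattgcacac
Gabra4: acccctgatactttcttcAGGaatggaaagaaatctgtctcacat

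The codon is at bases 385 to 387 of the *Gabra2* coding sequence, 583 to 585 of *Gabra3*, 406 to 408 of *Gabra5* and 481 to 483 of *Gabra4*, counted from the first base of the start codon. Over whole coding sequences, identity between members ran from 56.7% (*Gabra2* and *Gabrd*) to 73.5% (*Gabra2* and *Gabra3*), and *Gabrb1* and *Gabrb2* were 72.7% identical. Reads of 50 bases could nevertheless be told apart: no 50-base word of the annotated transcripts was shared between members apart from 2 words common to *Gabra2* and *Gabra3*.

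In GRCm38, *Gabra2* (ENSMUSG00000000560, minus strand, chr5:70957597-71095849), *Gabra4* (ENSMUSG00000029211, minus strand, chr5:71569749-71658308) and *Gabrb1* (ENSMUSG00000029212, plus strand, chr5:71658113-72149037) lie in this order on chromosome 5. A gap of 473899 bp separates *Gabra2* from *Gabra4*. *Gabra4* and *Gabrb1* run head to head and their annotated starts overlap by 196 bp, of which 46 bases are exonic in both. *Gabra5* (ENSMUSG00000055078, chr7:57407672-57510059, minus strand) shares 148 exonic bases, 4.98% of its exon length, with *Gm9962*, an antisense gene. *Gabra3* (ENSMUSG00000031343, chrX:72432681-72656848, minus strand), *Gabrb2* (ENSMUSG00000007653, chr11:42419757-42629028, plus strand) and *Gabrd* (ENSMUSG00000029054, chr4:155384980-155398112, minus strand) share no exonic base with another gene. The library kit keeps strand, but the strand setting used for counting was not given in the sources used here, so the reads in the shared exonic bases cannot be told apart.

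The window before the annotated start of *Gabra4* is shown because *Gabra4* stood highest in 1 library in the results that follow. RefSeq promoter sequences (GRCm38.p6) were matched for 6 of the 7 genes, all but *Gabrd*. The 195 bases given lie at chr5:71658364-71658558 on the minus strand and are free of annotated *Gabra4* and *Gabrb1* exons. Capitals mark matches to the GC box GGGCGG on either strand.
Gabra4: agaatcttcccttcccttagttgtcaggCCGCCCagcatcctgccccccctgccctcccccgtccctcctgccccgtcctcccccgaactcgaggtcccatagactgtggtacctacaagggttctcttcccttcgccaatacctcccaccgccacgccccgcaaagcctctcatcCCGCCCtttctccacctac

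GC boxes occur in 32.7% of the 32851 RefSeq promoter windows of 250 bases, and the *Gabra4* window holds 2. The EGR motif spellings GCGTGGGCG and GCGGGGGCG and the cAMP response element TGACGTCA were also searched on both strands, and none of them occurred in the windows of the 6 genes. They occur in 0.536%, 2.57% and 1.55% of all windows. The shorter form TGACG, which the response element contains, was also absent from these windows and occurs in 17.8% of all. The TATA box TATAAA (12.4% of all windows) was found for *Gabrb2* and *Gabra3*, and the GC box also for *Gabra2* and *Gabrb2*. These matches describe letters in a window and say nothing of which factors bind there.

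The libraries held between 28456504 and 42854368 counts, and the 7 genes between 858 and 10611 counts per library, so counting error was small beside the spread between libraries. *Mvp* itself had 6.83 ± 1.0 CPM (counts scaled to library size, SD, n = 4) in WT and 1.63 ± 0.33 in Mvp KO, and the genotypes did not overlap. It was the single gene of 16914 tested that passed an adjusted p of 0.05 in edgeR's quasi-likelihood test (adjusted p = 0.0162), that is 0.00591% of them. WT replicate 4 stood apart from the other 7 libraries, with 71.5 on a first principal component that held 46.0% of the variance, against -20.4 to -2.78 in the others. It also had 4079 CPM summed over 8 genes induced by neuronal activity, against 459 to 1008 CPM in the others. All 8 of these genes were highest in it, as were 29.2% of genes tested. The gene lists were chosen with earlier results of these data known, so these values describe the library and are no separate support. The log2 fold changes of the 7 members, their ratios and the medians of the other gene lists are also given without this library. Markers of cortical excitatory neurons summed to between 5008 and 6417 CPM in all libraries, and those of dentate granule cells, a hippocampal cell type, to between 13.5 and 23.3 CPM. Oligodendrocyte markers varied from 1202 CPM in WT replicate 4 to 5208 CPM in Mvp KO replicate 1.

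Levels were first compared between genes, per length of exon, as reads per kilobase of the union of annotated exons and library size (RPKM). *Gabra3*, an alpha subunit with a histidine codon at the drug site, had the highest level, with 66.3 ± 4.12 RPKM in WT and 65.9 ± 4.40 in Mvp KO (SD, n = 4 each). It ranked first in all 8 libraries and lay at the 97.1 percentile of the genes tested. *Gabra4* followed with 31.8 ± 7.36 RPKM in WT and 27.6 ± 1.53 in Mvp KO, and ranked second in all 8 libraries. Leaving out WT replicate 4 gave WT means of 64.7 ± 3.14 RPKM for *Gabra3* and 28.1 ± 1.201 RPKM for *Gabra4* (n = 3). In bulk tissue, fewer cells of a type and less RNA per cell cannot be told apart, so a level is that of the whole tissue.

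**Figure D1:**
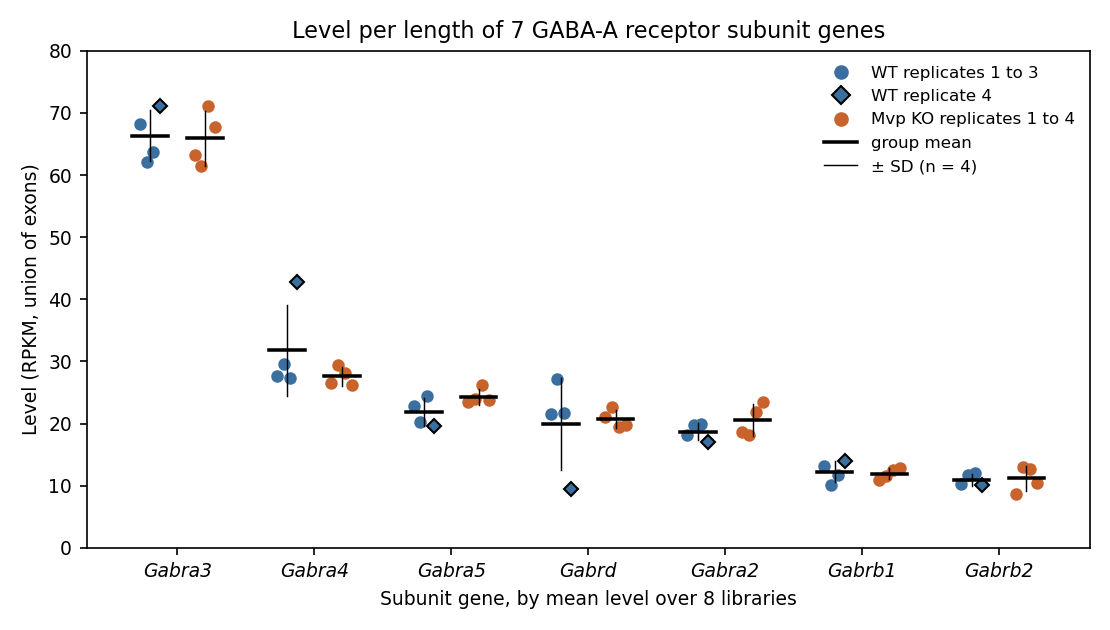
Levels of the 7 subunit genes in RPKM (vertical axis, from 0), with 1 point per library, WT in blue and Mvp KO in orange, the group mean as a thick bar and ± SD (n = 4) as a thin line. *Gabra3* lies between 61.5 and 71.1 RPKM in all 8 libraries, above all other genes, and WT replicate 4 (diamond) is the highest point for *Gabra4* (42.7 RPKM) and the lowest for *Gabrd* (9.48 RPKM).

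Behind these genes, *Gabra5* had 21.8 ± 2.27 RPKM in WT and 24.3 ± 1.27 in Mvp KO. *Gabrd*, which encodes the extrasynaptic delta subunit, had 19.9 ± 7.45 and 20.7 ± 1.45, and *Gabra2* had 18.7 ± 1.40 and 20.6 ± 2.58. The beta genes were the lowest of the 7 on this scale, with 12.2 ± 1.65 RPKM in WT and 11.96 ± 0.91 in Mvp KO for *Gabrb1*, and 11.0 ± 0.97 and 11.2 ± 2.03 for *Gabrb2*. Leaving out WT replicate 4 moved the WT mean of *Gabrd* to 23.4 ± 3.21 RPKM (n = 3), that of *Gabra5* to 22.5 ± 2.16 and that of *Gabra2* to 19.3 ± 1.01, and the order of the 7 means over 7 libraries was the same as over 8. The highest mean level was 5.97 times the lowest, and 5.82 times without that library.

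The steps between neighbours in this order were not all larger than their spread. The log2 ratio of *Gabra3* to *Gabra4* was 1.17 ± 0.21 (SD over 8 libraries), and that of *Gabra2* to *Gabrb1* was 0.70 ± 0.22, both above 0 in all 8 libraries. *Gabra4* was above *Gabra5* in all 8 libraries too, by 0.35 ± 0.34, with 1.12 in WT replicate 4 and a mean of 0.24 ± 0.15 in the other 7. *Gabra5* was above *Gabra2* in all 8 libraries, by 0.24 ± 0.14. *Gabrd* lay between these in its mean but not apart from either. *Gabra5* was above *Gabrd* in 7 of 8 libraries, by 0.23 ± 0.41 (0.11 ± 0.26 without WT replicate 4), and *Gabrd* was above *Gabra2* in 5 of 8, by 0.0065 ± 0.42 (0.13 ± 0.25 without it). The beta genes changed places from library to library, with *Gabrb1* above *Gabrb2* in 4 of 8 and a log2 ratio of 0.13 ± 0.26 (0.08 ± 0.24 without WT replicate 4). Without that library, *Gabra3* to *Gabra4* gave 1.23 ± 0.12 and *Gabra2* to *Gabrb1* gave 0.76 ± 0.16.

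The order below *Gabra3* also depended on which length was used, because the genes differ in their untranslated exons. The union of exons is 13838 bases for *Gabrb1* and 2875 bases for *Gabrd*, while the longest coding sequences are 1422 and 1347 bases. With coding length, *Gabrb1* stood second with 118 RPKM, behind *Gabra3* with 162, and *Gabrd* last with 43.4. With the longest protein-coding transcript, *Gabrd* stood after *Gabra3* and *Gabra4* with 30.4 RPKM and *Gabrb1* last with 12.2. *Gabra3* ranked first in all 8 libraries under each of the 3 lengths. The order of the other 6 depended on the length chosen.

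Taking the 7 levels together per library, the sum was 182 ± 1.56 RPKM in WT and 182 ± 8.15 in Mvp KO. *Gabra3* made up 36.5% ± 1.98 of it in WT and 36.1% ± 1.36 in Mvp KO. Among the 4 alpha genes alone, *Gabra3* accounted for 47.8% ± 1.35 in WT (48.0% ± 1.58 without WT replicate 4) and 47.6% ± 0.93 in Mvp KO. The sum in WT replicate 4 was 184 RPKM, inside the range of 172 to 192 RPKM of the other 7 libraries, although *Gabra4* took 23.2% of it against 14.2% to 16.4% in the others and *Gabrd* took 5.15% against 10.1% to 15.02%.

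Genotype was then compared gene by gene on counts, and none of the 7 subunit genes passed an adjusted p of 0.05 or an unadjusted p of 0.05 in edgeR's test. Among all genes tested, 0.00591% passed the first threshold and 1.56% the second. The genotypes overlapped for each of the 7, as they did for all but 1.52% of genes tested. The log2 fold changes of Mvp KO over WT ran from -0.20 to 0.16, with a median of 0.02 over the 7 and of -2.07e-06 over all genes tested. DESeq2's Wald test and limma voom also called 0 of the 7 at either threshold. Without WT replicate 4, 0 of the 7 passed the adjusted threshold, 0 passed the unadjusted threshold and 0 had genotypes that did not overlap, against 0.00583%, 1.34% and 2.82% of genes tested.

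Among the alpha genes with a histidine codon, *Gabra2* had 138, 151, 152 and 130 CPM in WT and 143, 138, 167 and 180 CPM in Mvp KO, here and in later sentences in the order of replicates 1 to 4. Mvp KO replicates 3 and 4 were above every WT library, and the other 2 lay within the WT range. The log2 fold change was 0.14 ± 0.10 (SE, 95% interval -0.09 to 0.36, edgeR adjusted p = 0.969), and 0.10 ± 0.10 without WT replicate 4.

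*Gabra3*, the highest of the 7, had 268, 244, 250 and 279 CPM in WT and 248, 241, 279 and 266 CPM in Mvp KO. The genotypes covered nearly the same range. Its log2 fold change was -0.0090 ± 0.08 (95% interval -0.18 to 0.16, edgeR adjusted p = 0.989) and 0.03 ± 0.07 without WT replicate 4, so its sign turned.

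*Gabra5* encodes the alpha subunit of receptors that carry tonic inhibition in pyramidal cells. It had 68.0, 60.1, 72.9 and 58.5 CPM in WT and 69.8, 71.1, 78.0 and 70.6 CPM in Mvp KO. WT replicate 3 lay inside the Mvp KO range and the other 3 WT libraries below it. The log2 fold change of 0.16 ± 0.08 (95% interval -0.03 to 0.35) was the furthest above 0 of the 7 and had the smallest unadjusted p (0.0921, edgeR adjusted p = 0.969). Without WT replicate 4 it was 0.11 ± 0.08. Without WT replicate 3 it was 0.21 ± 0.08, with an unadjusted p of 0.0308 and an adjusted p of 0.926 in edgeR's test.

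*Gabra4*, the alpha gene with an arginine codon, had 168, 180, 166 and 260 CPM in WT and 161, 179, 172 and 160 CPM in Mvp KO. WT replicate 4 was far above all other libraries, and the remaining WT libraries lay close to the Mvp KO range. The log2 fold change was -0.20 ± 0.14 (95% interval -0.52 to 0.11, edgeR adjusted p = 0.969) and -0.02 ± 0.06 without WT replicate 4.

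The beta subunits complete the GABA binding site. *Gabrb1* had 181, 141, 162 and 193 CPM in WT and 151, 160, 173 and 179 CPM in Mvp KO. Every Mvp KO library lay inside the WT range. The log2 fold change was -0.03 ± 0.10 (95% interval -0.27 to 0.20, edgeR adjusted p = 0.976), and 0.04 ± 0.09 without WT replicate 4.

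*Gabrb2* had 65.3, 74.1, 76.1 and 63.9 CPM in WT and 55.0, 82.5, 80.5 and 66.2 CPM in Mvp KO. Here the WT range lay inside the Mvp KO range. The log2 fold change was 0.02 ± 0.13 (95% interval -0.27 to 0.32, edgeR adjusted p = 0.983), and -0.01 ± 0.14 without WT replicate 4.

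*Gabrd* had 61.8, 78.0, 62.3 and 27.2 CPM in WT and 60.5, 65.0, 55.7 and 57.0 CPM in Mvp KO. The 4 Mvp KO libraries lay close together, and the WT libraries lay on both sides of them, with WT replicate 2 highest and WT replicate 4 lowest. Its log2 fold change of 0.05 ± 0.26 had the widest interval of the 7, from -0.53 to 0.63 (edgeR adjusted p = 0.983). Without WT replicate 4 it became -0.18 ± 0.09 (95% interval -0.39 to 0.04, unadjusted p = 0.0932 and adjusted p = 0.99994 in edgeR's test).

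**Figure D2:**
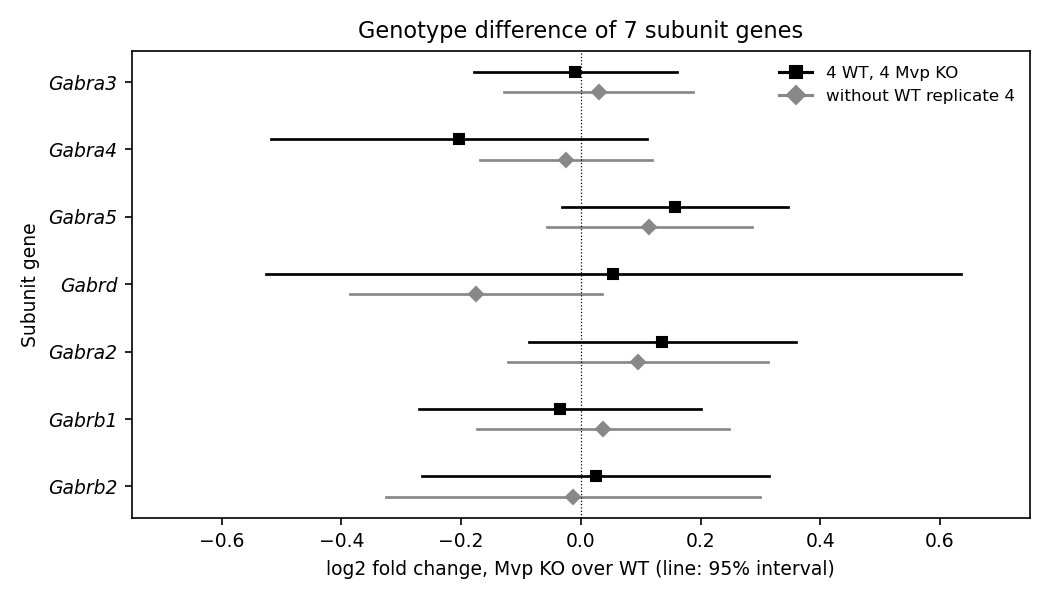
The log2 fold change of Mvp KO over WT (horizontal axis) of each subunit gene from edgeR's fit, with its 95% interval, over all 8 libraries (black squares) and without WT replicate 4 (grey diamonds). All 14 intervals include 0, and leaving out WT replicate 4 narrows those of *Gabra4* and *Gabrd* most.

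The intervals bound what these libraries could have missed. In 6 of the 7 genes the fold change was bounded by its 95% interval to less than 1.5-fold either way, as it was for 64.5% of all genes tested, and for *Gabrd* it ran from 0.694 to 1.55. Leaving out WT replicate 4, the intervals of all 7 lay within 1.5-fold, against 71.4% of genes tested. *Gabrd* was then between 0.765 and 1.02 times its WT level and *Gabra4* between 0.890 and 1.09 times.

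Ratios within a library need no scaling between libraries, and 3 of them were compared between genotypes by two-sided exact permutation, with 70 ways to arrange the libraries and a smallest possible p of 0.0286. The log2 ratio of *Gabrb1* to *Gabrb2* counts was 1.27 ± 0.31 in WT and 1.23 ± 0.25 in Mvp KO (exact p = 0.8). That of *Gabra5* to *Gabra2* was -1.14 ± 0.14 and -1.11 ± 0.17 (exact p = 0.714). The genotypes overlapped for both ratios. Without WT replicate 4 the differences of Mvp KO minus WT, -0.04 and 0.03 with it, were 0.07 and 0.03 (exact p = 0.771 and 0.743), so that of the beta genes turned its sign.

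The ratio of *Gabra4* to *Gabrd*, the partners of many extrasynaptic receptors, was the exception in its spread. In WT libraries its log2 value was 1.44, 1.203, 1.41 and 3.25, and in Mvp KO libraries it was 1.41, 1.46, 1.62 and 1.49. WT replicate 4 thus stood more than 1.5 log2 units above each other library. The mean was 1.83 ± 0.96 in WT and 1.496 ± 0.09 in Mvp KO, an exact permutation p of 0.943, and the p adjusted over the 3 ratios was 0.943 for each of them. Without WT replicate 4 the mean in WT was 1.35 ± 0.13 and the difference turned to 0.14 in favour of Mvp KO (exact permutation p = 0.143 over 35 arrangements).

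**Figure D3:**
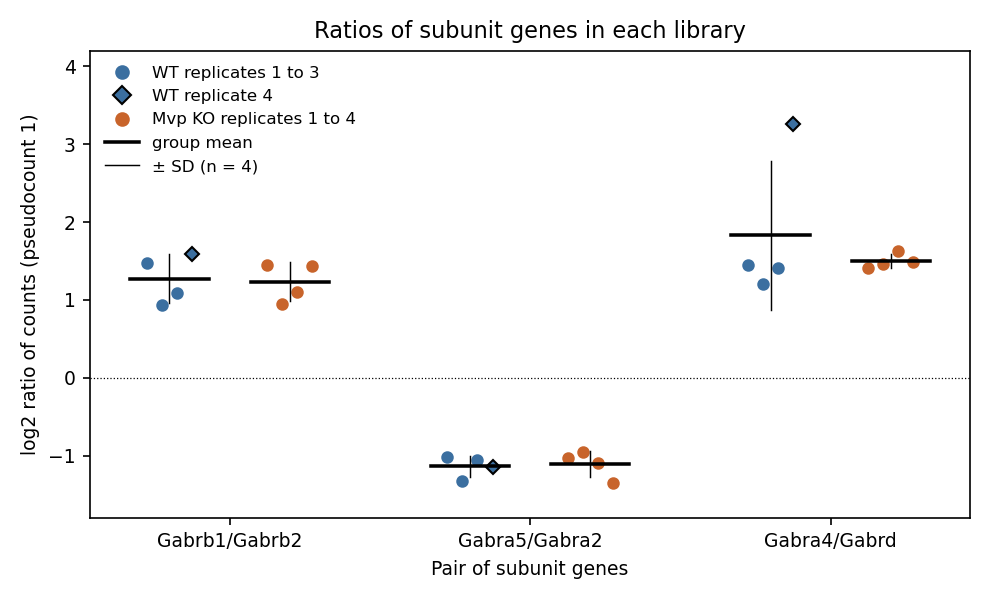
The log2 ratio of counts (vertical axis, pseudocount 1) for 3 pairs of subunit genes in each library, WT in blue and Mvp KO in orange, with group means as thick bars and ± SD (n = 4) as thin lines. WT replicate 4 (diamond) has a *Gabra4* to *Gabrd* log2 ratio of 3.25, while the other 7 libraries lie between 1.203 and 1.62.

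Since WT replicate 4 set the spread of 2 genes, its values were laid beside the other 7 libraries, as a description of 1 library with no test. *Gabra4* was 1.55 times the median of the other 7 (260 against 168 CPM), and *Gabrd* was 0.441 times it (27.2 against 61.8 CPM). *Gabrb1* was also above every other library (193 CPM, others 141 to 181), and *Gabra2* (130 CPM, others 138 to 180) and *Gabra5* (58.5 CPM, others 60.1 to 78.0) were below every other library. *Gabra3* and *Gabrb2* lay within the range of the others. In all, 2 of the 7 were above and 3 below every other library, against 29.2% and 32.5% of genes tested.

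Of the 7, 1 was at least 1.5-fold higher and 1 at least 1.5-fold lower in WT replicate 4 than the median of the others, against 10.4% and 14.1% of genes tested. The *Gabrd* value stood at the 4.21 percentile and the *Gabra4* value at the 90.6 percentile of this ratio over the genes tested. The same library had the highest sum of the 8 activity genes, as given above, and the highest sum of 6 striatal neuron markers, with 181 CPM against 90.7 to 115 CPM. Of these 6 markers, 4 were highest in it. Interneuron markers summed to 825 CPM in it and to 571 to 789 CPM in the others, with 3 of the 8 highest and 3 lowest in it. The part of these differences in the levels of *Gabra4* and *Gabrd* was not tested.

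**Figure D4:**
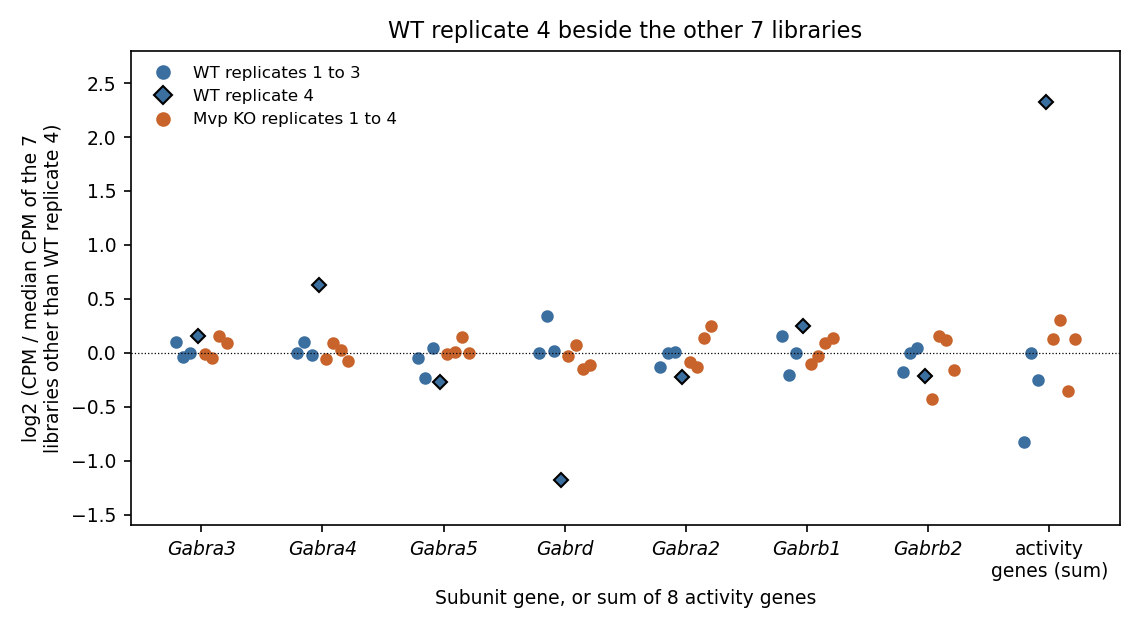
The log2 ratio of each library's CPM to the median CPM of the 7 libraries other than WT replicate 4 (vertical axis), for the 7 subunit genes and for the sum of 8 activity genes (Fos, Arc, Npas4, Bdnf, Inhba, Ptgs2, Nptx2 and Nr4a1), with 1 point per library. WT replicate 4 (diamond) is at 0.63 for *Gabra4* and at -1.18 for *Gabrd*, the points furthest from 0 among the subunit genes.

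How the members varied together was described by Pearson's r of log2 CPM over the 8 libraries, after each genotype's mean was removed. The points share libraries and their scaling, so r is given without a test. Over the 21 pairs of members, r ran from -0.86 to 0.85, and 9 pairs changed sign when WT replicate 4 was left out. *Gabra4* and *Gabrd* had r = -0.86 with that library and 0.68 without it. *Gabra3* and *Gabrb1* kept theirs at 0.85 and 0.78, and *Gabrb1* and *Gabrd* at -0.75 and -0.84. The head-to-head neighbours *Gabra4* and *Gabrb1* had r = 0.45 over 8 libraries and -0.41 over 7.

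Among 11545 genes with a mean of at least 5 CPM, those most like each member by this r were *Cbx6* and *Mast3* for *Gabra2*, *Chid1* and *Gspt2* for *Gabra3*, *Zfp248* and *Ubtd1* for *Gabra4*, and *Ess2* and *Iqck* for *Gabra5*. For the beta and delta genes they were *Slc10a7* and *Nedd4* for *Gabrb1*, *Atrnl1* and *Mcoln1* for *Gabrb2*, and *Prr16* and *Letm2* for *Gabrd*. Their r ran from 0.961 to 0.998 over 8 libraries and from 0.898 to 0.996 over the 7 without WT replicate 4. Values this high are the top of a search over many genes with few libraries.

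The other genes of GABA signalling were read from 7 lists of 62 genes, of which 61 were matched and 56 tested. None of the 56 passed an adjusted or an unadjusted p of 0.05 in edgeR's test, and DESeq2's Wald test and limma voom also called none at either threshold. At the unadjusted threshold, edgeR's fits without 1 library called *Abat* and *Slc32a1* (without WT replicate 1), *Kctd16* (without WT replicate 3) and *Kctd12* (without Mvp KO replicate 4), and the fit with no filter called *Gabra6*, all named after their values were seen. The 12 other GABA-A subunit genes held 7 that were tested, with a median log2 fold change of -0.04, which was 0.04 without WT replicate 4. *Gabrg1*, a gamma subunit gene, had the smallest unadjusted p among them, with 42.6 ± 3.70 CPM in WT and 39.2 ± 2.62 in Mvp KO (edgeR log2 fold change -0.12, adjusted p = 0.969). The 5 that were too low to test, named after their counts were seen, were *Gabra6*, which is known from cerebellar granule cells, *Gabre*, *Gabrp*, *Gabrr1* and *Gabrr3*. *Gabrp* had 0 counts in all libraries, which allows up to 3 counts in each.

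Scaffold and auxiliary proteins hold the receptors at inhibitory synapses, and their 11 tested genes had a median log2 fold change of -0.05, which was 0.01 without WT replicate 4. *Dag1*, which encodes dystroglycan, had the smallest p, with 127 ± 21.8 CPM in WT and 111 ± 14.3 in Mvp KO. Without WT replicate 4 its mean in WT was 117 ± 4.05 CPM. The 13 genes of receptor assembly and trafficking had a median of -0.06, and *Trak2*, a kinesin adaptor, the smallest p among them. In this last list 11 genes were below 0 with all libraries, but the median moved to -0.0036 without WT replicate 4. In that library 10 of the 13 genes were highest, against 29.2% of genes tested.

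The 7 genes that make, pack, take up and break down GABA had a median of -0.21, which was -0.09 without WT replicate 4. *Abat*, the GABA transaminase that degrades GABA, had 302 ± 42.9 CPM in WT and 262 ± 14.4 in Mvp KO, with a log2 fold change of -0.21 (unadjusted p = 0.0698, edgeR adjusted p = 0.969). Without WT replicate 4 it had 281 ± 10.5 CPM in WT and a log2 fold change of -0.10 (unadjusted p = 0.154 in edgeR's test). The summed level of these 7 genes was 2494 CPM in WT replicate 4 and between 1481 and 1822 CPM in the other 7 libraries. The 5 genes of the GABA-B receptor, the slower G protein-coupled receptor for GABA, had a median of -0.16 (-0.12 without that library), and *Kctd12*, an auxiliary subunit, the smallest p.

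Chloride transporters and their kinases set the driving force for GABA-A currents. Their 8 genes had a median log2 fold change of 0.06 (0.05 without WT replicate 4), and *Slc12a2*, the chloride importer NKCC1, had 69.0 ± 13.2 CPM in WT and 87.3 ± 25.1 in Mvp KO (log2 fold change 0.34, edgeR adjusted p = 0.969). Without WT replicate 4 its mean in WT was 75.4 ± 4.43 CPM and its log2 fold change 0.22. The 5 genes of neurosteroid synthesis, whose products act on delta receptors, had a median of 0.13, which was -0.01 without WT replicate 4. *Srd5a1*, the 5α-reductase of this pathway, had 7.96 ± 0.89 CPM in WT and 9.13 ± 0.85 in Mvp KO.

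The cells that release GABA were read through 8 interneuron markers, none of which passed an adjusted p of 0.05 in edgeR's test. *Sst*, the gene for somatostatin, had the smallest unadjusted p (0.0267, adjusted p = 0.969), with 209 ± 68.5 CPM in WT and 146 ± 15.6 in Mvp KO. *Npy*, named after its value was seen, was the other marker under an unadjusted p of 0.05, with 184 CPM in WT replicate 4 and 35.4 to 54.0 CPM in the other 7 libraries. *Sst* was likewise highest in that library, with 310 CPM against 124 to 191 CPM. *Vip*, *Lamp5*, *Adarb2* and *Reln* were also named after their values were seen. *Vip* (63.3 CPM, others 70.4 to 90.2), *Lamp5* (74.0 CPM, others 152 to 293) and *Adarb2* (13.8 CPM, others 15.3 to 18.6) were lowest in WT replicate 4, and *Reln* was highest (120 CPM, others 63.1 to 89.5). Without that library *Sst* had a log2 fold change of -0.26 (unadjusted p = 0.0215, adjusted p = 0.99994 in edgeR's test), and it was the only one of the 8 markers under an unadjusted p of 0.05. Markers of astrocytes, microglia and endothelial cells had medians of -0.11, -0.07 and -0.06, with 0 genes at an adjusted p under 0.05 and 0 at an unadjusted p under 0.05 in edgeR's test. Leaving out WT replicate 4, the medians were -0.15, -0.07 and -0.16, and 1 astrocyte marker, *Gja1*, named after its value was seen, had an unadjusted p of 0.0396 (adjusted p = 0.99994, edgeR). The 5 oligodendrocyte markers were all above 0, with a median log2 fold change of 0.67 (0.53 without WT replicate 4), and 0 passed an adjusted or an unadjusted p of 0.05 in edgeR's test. Their sum was 5208 and 3529 CPM in Mvp KO replicates 1 and 2. In Mvp KO replicates 3 and 4 it was 1780 and 1386 CPM, inside the WT range of 1202 to 2548 CPM.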

How the data were processed

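The authors made libraries of polyadenylated RNA with a stranded kit from 200 ng of total RNA and sequenced single ends of 50 bases. Per the labels and the study's methods, reads were trimmed with cutadapt 1.10, filtered with Bowtie2 2.2.8, mapped onto mm10 with STAR 2.5.3a and counted per gene of Ensembl with HTSeq 0.6.1p1. The deposited values are raw read counts. Samples were grouped by their titles. Symbols, exon lengths and positions came from GENCODE vM21 (GRCm38), which holds 53274 of the 53379 identifiers.

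Counts were fitted in R 4.3.3 with edgeR 4.0.16 (filterByExpr with a minimum count of 10 and a minimum total of 15, TMM scaling, robust quasi-likelihood test, genotype as the single term, Benjamini-Hochberg adjustment over 16914 genes, threshold 0.05). CPM values use TMM-scaled library sizes. The 3 ratios were compared with exact permutation tests (pseudocount 1). DESeq2 1.42.0, limma 3.58.1 and sva 3.50.0 served the alternatives, and Python 3.11.15 with Biopython 1.88 the sequences. The fits were tested on simulated data. Members and gene lists were chosen with earlier results of these data known. Named genes were the 7 members, *Mvp*, the genes most like each member, and in each other list those past the threshold and the one with the smallest p. The activity genes were named in full, and other list genes named after their values were seen are marked so in the text. The study's methods describe its replicates as biological, so samples were treated as separate animals. The deviations of same-numbered WT and Mvp KO libraries correlated between -0.0067 and 0.29, so numbers were not used as pairs. No 2 libraries were alike within counting noise (chi-square per gene between 6.54 and 87.4).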

Additional observations from a re-analysis of the deposited data

Results flagged for a closer look

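In groups of 4 libraries, a value was noted where its gap to the nearest other library as a share of the group's range, was above Dixon's 95% critical value. Over 22 such groups, 4 values were noted, and chance gives about 1 in 20. *Gabra4* in WT replicate 4 reached 260 CPM where WT replicates 1 to 3 had 166 to 180 CPM, and the log2 ratio of *Gabra4* to *Gabrd* in that library was 3.25, against 1.203 to 1.44. *Gabra5* in Mvp KO replicate 3 was 78.0 CPM, against 69.8 to 71.1 CPM. The total of WT replicate 2 was 42854368 counts (42.9 in units of 1e6), against 33408202 to 34760784. The *Gabrd* value of WT replicate 4 did not pass this limit, because WT replicate 2 lay high. The causes were not tested.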

How the results depend on the processing

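No member reached an adjusted p under 0.05 under any alternative tried (0 of 7 also at a threshold of 0.1), while 25 signs turned, all of values that did not pass the threshold. The limma voom fit gave log2 fold changes of 0.072 for *Gabra3*, 0.066 for *Gabrb1* and -0.14 for *Gabrd*, and 1 surrogate variable gave 0.032, 0.041 and -0.19 for these and -0.0032 for *Gabrb2*. Leaving out each library in turn gave -0.050 to 0.030 for *Gabra3*, -0.12 to 0.037 for *Gabrb1*, -0.058 to 0.13 for *Gabrb2* and -0.18 to 0.24 for *Gabrd*. It gave differences of the log2 ratios of -0.15 to 0.070 for *Gabrb1* to *Gabrb2*, of -0.033 to 0.11 for *Gabra5* to *Gabra2*, and of -0.54 to 0.14 for *Gabra4* to *Gabrd*. Under the unadjusted threshold these fits called 0 to 1 member, *Gabra5* without WT replicate 3. Over all genes tested, DESeq2's Wald test called 2, limma voom 2, and the fits without 1 library 0 to 1. They called 0 without WT replicate 1, 2 or 3 or Mvp KO replicate 1, 2 or 4, where the adjusted p of *Mvp* was 0.0918 to 0.147. The replicate block called 0 genes (*Mvp* adjusted p = 0.0850) and changed no call of a member. Other lengths moved 13 of the levels. The causes were not tested. The SE of the 7 log2 fold changes ran from 0.076 to 0.26, and differences of the size seen here were not detectable with it.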
